A study of Mus musculus with 3 samples.

Results

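Esam(hi) and Esam(lo) CD11b+ dendritic cells (DCs) from the spleens of control mice were compared, 1 array against 1 array. The series has 3 arrays, and 2 of them make this comparison. Every probe set (the group of short probes that reads 1 transcript) with a single gene name was used, which gave 19938 genes. Of these, 9196 were above background on the brighter of the 2 arrays. The control mice carried the RBPJflox/flox alleles without Cre, as littermates of the deleted mice, together with a GFP reporter in Cx3cr1. Spleens of 2 to 3 mice were combined for each array. Magnetic columns removed the lymphoid and erythroid cells, and the sort gate was CD11c(hi) CD11b+. The Esam(hi) cells had little Cx3cr1-GFP and the Esam(lo) cells had much of it. On the third array were Esam(lo) cells of reporter mice with the same floxed alleles and CD11c-Cre, which is active in cells that use the CD11c promoter. It is called the array labelled RBPJ-deficient, and its values are set beside the others without a comparison. The mice's age and sex were not given in the sources used here.

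Conventional DCs carry antigen to T cells and show it on their surface. Those of the spleen with CD11b on their surface are divided by Esam, an adhesion molecule of endothelial and immune cells. Notch receptors are cut when a neighbouring cell shows a ligand, and the freed inner part joins the DNA-binding protein RBPJ to switch on target genes such as Dtx1. Notch2 is the receptor named in the study's title, and RBPJ acts downstream of every Notch receptor.

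Values were log2 intensities, so a difference of 1 is 2-fold, and every difference below is Esam(hi) minus Esam(lo). With 1 array per group there was no replicate error and no test, and every statement is about these arrays. Values of a gene are given in the order Esam(hi), Esam(lo) and, where another follows, the array labelled RBPJ-deficient. Background was set by 1194 receptor genes of smell and pheromone sensing, which few tissues other than the nose use, at their 95th percentile on each array. It was 7.17 for Esam(hi) and 6.76 for Esam(lo), and 8175 and 9537 genes were above it. Where the dimmer value was below it, the fold is given as at least the ratio to that background. Differences were read on the deposited values and again after subtracting their smooth trend with mean level, here the trend-removed difference. In bulk RNA, fewer cells of a type and less RNA per cell cannot be told apart.

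The sort markers were read first. Esam was 7.79, 6.57 and 6.12, and below background on the last 2. It was at least 2.04-fold higher on the Esam(hi) array, in the direction of the sort. Cx3cr1, the fractalkine receptor that carries the reporter, was 8.32, 9.58 and 9.58, which is 2.40-fold lower, and its trend-removed difference of -0.84 was short of 2-fold. Itgax, encoding CD11c, was 12.36 and 12.50 on the control arrays, and its difference of -0.13 turned to 0.20 with the trend removed and to 0.13 with quantile normalization. Dtx1, the Notch target, was 11.25, 9.55 and 8.56, and Ccr2, the receptor that brings monocytes out of the bone marrow, was 6.32, 9.64 and 9.84. Of 15 classical DC markers, 14 besides Itgax were measured and above background, with median levels of 10.18 and 10.61, so the labelled cell type had its markers on both. Of these 14, 2 were 2-fold lower on the deposited and the trend-removed values alike, against 5.05% of all genes. The 9 CD11b+ CD4+ DC markers above background had a median difference of -0.34 (0.03 trend-removed). On both readings 1 of them was 2-fold higher and 1 was 2-fold lower.

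Promoters are shown for Dtx1 and Gpr4, 2 of the protein-coding genes farthest higher on the Esam(hi) array, and for Cx3cr1 and Lyz2 on the Esam(lo) side. Each run is the 250 bases before the start site in RefSeq (GRCm38.p6), 5′ to 3′ on the gene's own strand, with capitals where the RBPJ core motif TGGGAA or its reverse complement TTCCCA was found. Dtx1 lies at chr5:120711670-120711919 (minus strand), Gpr4 at chr7:19212288-19212537 (plus), Cx3cr1 at chr9:120068297-120068546 (minus) and Lyz2 at chr10:117282273-117282522 (minus).
Dtx1: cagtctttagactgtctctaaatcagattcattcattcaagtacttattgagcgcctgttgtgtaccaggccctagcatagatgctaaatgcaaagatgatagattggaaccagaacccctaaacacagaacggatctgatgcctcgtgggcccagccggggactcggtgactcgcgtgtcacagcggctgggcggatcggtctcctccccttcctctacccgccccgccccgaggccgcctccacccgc
Gpr4: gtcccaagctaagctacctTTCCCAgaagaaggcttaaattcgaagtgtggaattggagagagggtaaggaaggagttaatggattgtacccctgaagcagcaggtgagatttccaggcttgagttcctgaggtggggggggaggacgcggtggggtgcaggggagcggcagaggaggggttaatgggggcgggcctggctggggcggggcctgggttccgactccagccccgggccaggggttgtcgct
Cx3cr1: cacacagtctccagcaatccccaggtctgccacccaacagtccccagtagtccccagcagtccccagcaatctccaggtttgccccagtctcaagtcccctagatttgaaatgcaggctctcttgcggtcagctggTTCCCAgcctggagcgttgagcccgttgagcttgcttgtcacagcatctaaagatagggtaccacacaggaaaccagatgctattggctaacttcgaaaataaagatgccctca
Lyz2: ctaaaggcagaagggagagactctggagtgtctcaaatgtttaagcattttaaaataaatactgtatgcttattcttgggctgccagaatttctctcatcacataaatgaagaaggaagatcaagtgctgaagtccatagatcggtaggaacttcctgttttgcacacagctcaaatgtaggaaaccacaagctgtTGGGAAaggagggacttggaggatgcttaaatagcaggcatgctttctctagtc
The core motif was found once each in the Gpr4, Cx3cr1 and Lyz2 windows, so on both sides of the comparison, and its letters were not in the Dtx1 window. It was in 24.4% of 41 promoters of genes higher on both scales, in 20.7% of 473 promoters of lower genes and in 21.6% of all 32851 promoters. The PU.1 motif GAGGAAGT, or ACTTCCTC on the other strand, was searched too, and neither motif contains the other. It was in 4.9%, 4.2% and 2.4% of the same sets. Over genes above background these shares were 19.4% for the core and 2.9% for PU.1. A match is a description of the letters and not a binding site.

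By the 2-fold rule 75 of 9196 genes (0.816%) were higher on the Esam(hi) array and 1066 (11.6%) were lower on the deposited values. With the trend removed 180 (1.96%) were higher and 487 (5.3%) lower. On both scales 71 (0.772%) were higher and 464 (5.05%) lower, and these 2 sets are the ones called higher and lower below unless a scale is named. Of the genes past 2-fold, 93.4% were lower on the deposited values, 73.0% with the trend removed, 96.9% with each array centred on its median and 81.3% with quantile normalization. The median difference over all 9196 genes was -0.32 on the deposited values and -0.05 with the trend removed, and the gene lists below are to be read against these values. On the deposited scale 16 higher and 127 lower genes lay just inside the threshold, at 1 to 1.05 log2 units. Just outside it, at 0.95 to 1, lay 17 and 167. Exactly equal values on the control arrays were found for 1042 genes (11.3%).

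**Figure D1:**
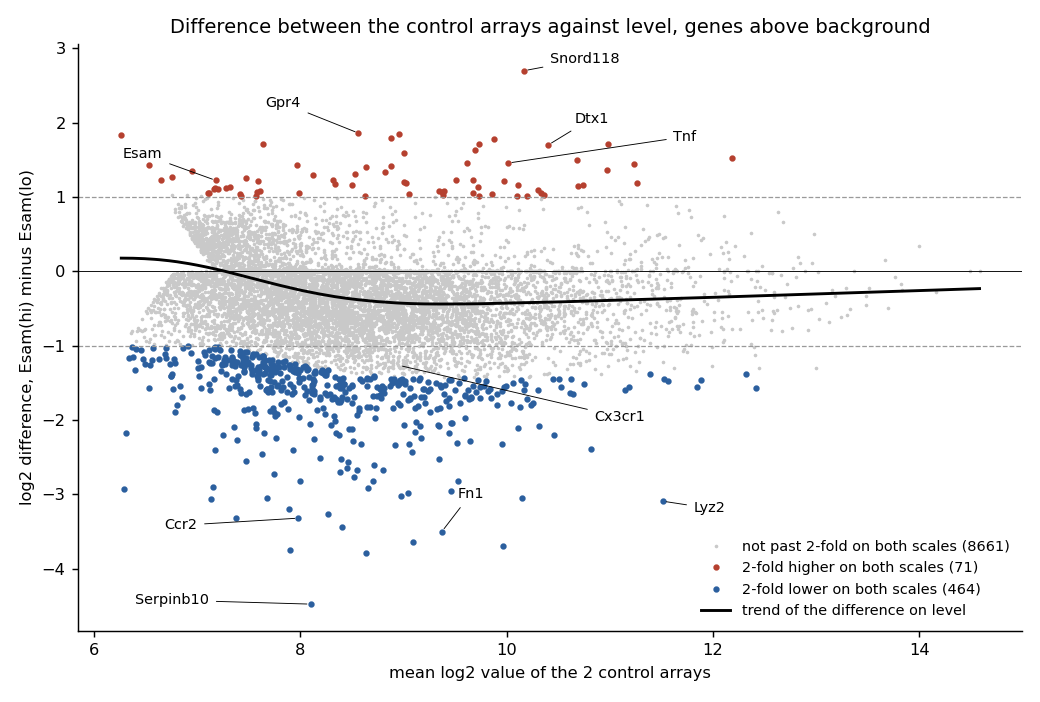
Each point is 1 of 9196 genes above background, with the mean log2 value of the control arrays on the horizontal axis and the log2 difference, Esam(hi) minus Esam(lo), on the vertical axis. Red marks the 71 genes 2-fold higher and blue the 464 genes 2-fold lower on both scales, the black line is the trend that was removed, and dashed lines mark 2-fold. The blue points reach farther from 0, to -4.48 for Serpinb10, than the red points, which end at 2.70 for Snord118.

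Both sets differed in size and make-up. The higher set held 45 protein-coding genes and 26 of other kinds, and 58 of its 71 genes were above background on both arrays. The lower set held 461 protein-coding genes and 3 others, and 253 of its 464 genes were above background on both arrays. The median trend-removed difference was 1.53 in the higher and -1.26 in the lower set. A trend-removed difference of at least 2 log2 units was found for 10 higher and 46 lower genes, and one of at least 3 for 1 higher and 11 lower genes. Where a gene had a second probe set above background, that probe set had the same sign for 9 of 9 higher and 31 of 31 lower genes, and it was itself 2-fold apart for 6 and 17 of them. The 6 were Snord118, Srsy, Gm7982, 3110040M04Rik, A530032D15Rik and A530040E14Rik. Plb1, Tns1, Sash1 and Nyx, named below and also with several probe sets, were not among the 6.

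The 20 protein-coding genes farthest higher on the Esam(hi) array included regulators of G proteins, surface receptors, transporters and a cytokine. Arap2, which regulates ARF proteins, was 9.88, 8.03 and 8.02, a 3.60-fold difference. Gpr4, a proton-sensing receptor, was 9.49, 7.63 and 7.07, 3.63-fold higher. Dtx1 was 3.25-fold higher. In these 3 genes the Esam(lo) array and the labelled array were both below the Esam(hi) array. Tnf, the inflammatory cytokine, was 10.74, 9.29 and 9.74, 2.75-fold higher. Adam23, a disintegrin without protease activity, was 11.96, 10.51 and 11.10, and Slco5a1, of the organic anion transporter family, was 8.49, 6.78 and 7.47. For Tnf, Adam23 and Slco5a1 the labelled array lay between the controls.

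Genes of cell attachment and the cytoskeleton were also among the 20. Tns1, encoding tensin 1 of focal adhesions, was 10.12, 8.89 and 8.89 on the 3 arrays, and Actn1, the actin crosslinker alpha-actinin 1, was 10.28, 9.06 and 9.16. Both were thus at nearly equal levels on the arrays of Esam(lo) cells. Sash1, a scaffold protein, was 10.20, 9.14 and 8.25, and Abcb1a, a gene for the drug-efflux pump P-glycoprotein, was 9.88, 8.80 and 7.88. Dscam, a cell adhesion molecule, was 10.86, 9.81 and 10.01. Plb1, a phospholipase, was 9.49, 8.16 and 8.11, Slc4a8, a bicarbonate transporter, 8.92, 7.75 and 7.80, and Sp140, a nuclear body protein of immune cells, 9.57, 8.53 and 8.73. The folds of these 8 genes ran from 2.05 to 2.52. Abcb1b, the close relative of Abcb1a, was in the lower set at 7.23, 9.09 and 8.99, 3.63-fold lower. The other 6 of the 20 were Srsy, Ifnz, Nyx, Lce1j, Pate11 and Sfi1. Srsy, a multicopy gene of the Y chromosome with 19 probe sets, was 10.77, 8.99 and 8.21, and reads of such families can be shared between copies. Abcb1a, Sash1, Pate11, Sp140, Dscam and Sfi1 fell short of 2-fold, at 0.90 to 0.96, when each array was centred on its median.

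The 20 genes farthest lower were mostly receptors and secreted proteins of phagocytes. Serpinb10, a protease inhibitor of bone marrow cells, was 5.86, 10.34 and 9.73, at least 9.0-fold lower. Ace, the angiotensin-converting enzyme, was 7.27, 10.91 and 9.98, and Wfdc17, a small secreted protein of the whey acidic protein family, was 8.11, 11.81 and 11.91. Ets2, a transcription factor of the ETS family, was 6.58, 9.41 and 9.29, at least 4.72-fold lower. The differences of these 4 genes ran from -4.48 to -2.83, and the labelled array was also far above the Esam(hi) array. Abca9, a lipid transporter, was 6.29, 9.49 and 9.49, and Ly6a2, of the Ly6 surface protein family, was 7.46, 10.48 and 10.94, 8.10-fold lower. Clec10a, a lectin that binds galactose-type sugars, was 4.83, 7.75 and 8.96, so its highest value was on the labelled array. Of these 20 genes 14 were below background on the Esam(hi) array.

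**Figure D2:**
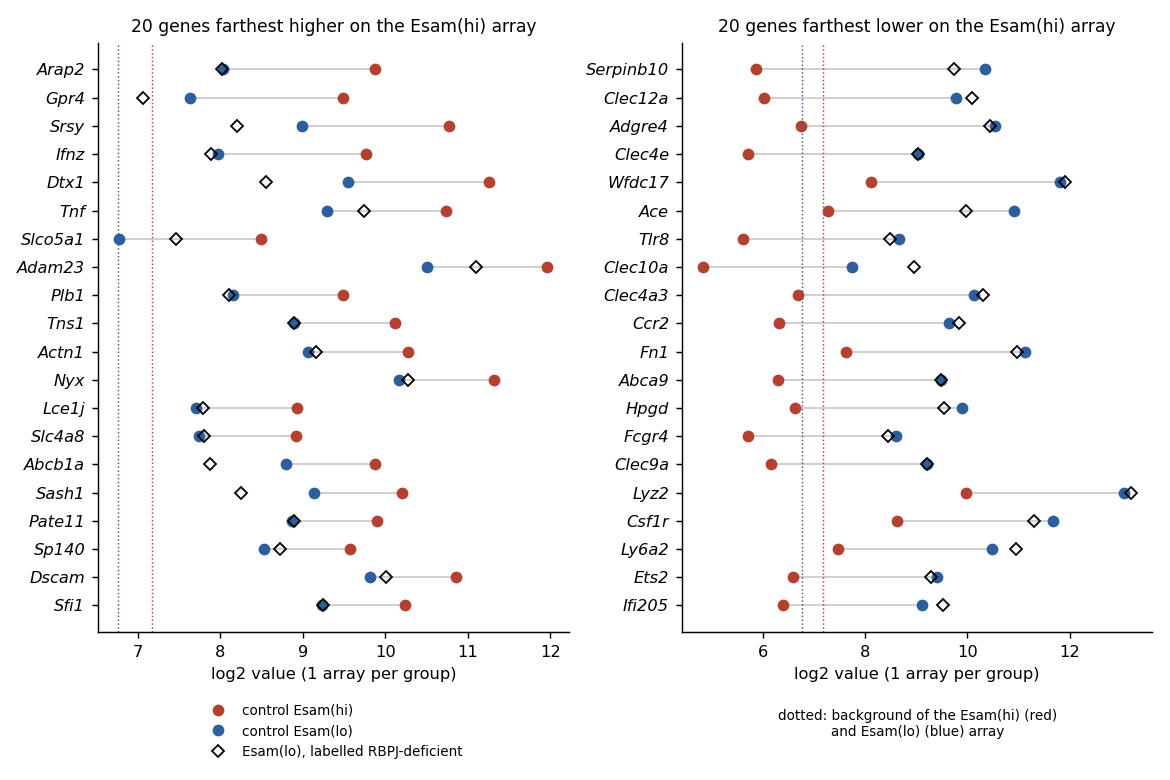
Log2 values of the 20 protein-coding genes farthest higher (left) and farthest lower (right) on the Esam(hi) array by trend-removed difference, on the control Esam(hi) array (red), the control Esam(lo) array (blue) and the array labelled RBPJ-deficient (open diamonds), 1 array each. Genes with provisional names and the families left out of the ranking are not shown. Dotted lines mark the background of the Esam(hi) array (7.17) and the Esam(lo) array (6.76). In the right panel the Esam(hi) values end at 9.97 for Lyz2, and Serpinb10 has the widest gap.

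Gene families and pathways were then read whole, from 157 lists, of which 59 met the rule for description. The other 98 lists had trend-removed medians from -0.42 to 0.35 and held 14 higher and 71 lower members. Of the 59, 45 had a trend-removed median below 0 and 14 above it. The sort markers Esam, Itgax, Itgam and Cx3cr1 stayed out of every list's counts. Many genes are in more than 1 list, so the lists are not separate observations. A list's median is over its members above background, and a gene that passed only through the array where it was brighter had to differ. The unfiltered median is over every member on the array, and on the deposited values unless said. It is therefore given for many lists, though not for all, and over all 19938 genes it was 0.00 (-0.02 trend-removed).

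Receptor families of phagocytes held many of the lower genes, but the lectin, Fc, Ms4a and Klr families as wholes had unfiltered medians of 0.00. Of 43 C-type lectin genes on the array 20 were above background, and 11 of these were lower on both scales, against 11.6% and 5.3% of all genes, with a median of -1.12 (-1.18 trend-removed). Only 9 of the 20 were above background on both arrays, and over all 43 the unfiltered median was 0.00 (-0.17 trend-removed). Clec12a, an inhibitory receptor for uric acid crystals, was 6.02 and 9.77. Clec4e, which reads mycobacterial glycolipid, was 5.71 and 9.03, and Clec4a3 was 6.69 and 10.13. Clec9a, a receptor for actin filaments of dead cells best known from CD8+ DCs, was 6.15 and 9.20, and Cd209a, a mannose-binding lectin, was 9.63 and 12.01. The lectins thus ranged from genes under background to a gene still bright on the Esam(hi) array.

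Fc receptors, which bind the constant part of antibodies, included 6 members above background of 16, and 4 were lower (median -1.37, trend-removed -1.16). Over all 16 the unfiltered median was 0.00 (-0.09 trend-removed), and 4 of the 6 were above background on both arrays. Fcgr2b, the inhibitory IgG receptor, was 7.20 and 10.12, 7.58-fold lower, and Fcgr4, an activating IgG receptor, was 5.70 and 8.60, at least 2.70-fold lower. Fcer1g, the signalling chain shared by several of these receptors, was 10.82 and 12.30, and Fcgr3 was 6.82 and 8.08. These named genes are the 4 lower ones, and the other members above background were not 2-fold lower on either scale.

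The Ms4a genes encode tetraspan membrane proteins that sit side by side in the genome. Of 19 on the array 8 were above background and 6 were lower (median -1.43, trend-removed -1.15). Over all 19 the unfiltered median was 0.00 (-0.14 trend-removed), and 6 of the 8 were above background on both arrays. Ms4a6b was 8.45 and 10.49, Ms4a6c 10.41 and 11.97, Ms4a4c 9.22 and 10.77, Ms4a6d 6.23 and 8.10, Ms4a4a 7.28 and 8.60, and Ms4a7 5.89 and 7.07. These 6 genes also formed the longest of 7 runs of at least 3 neighbouring above-background genes that were all lower. The other runs included Fcgr2b, Fcgr4 and Fcgr3, as well as Cd69, Clec12a, Clec9a and Clec7a. Further runs were Trem1, Trem3 and Treml4, and Naaa, Sdad1, Cxcl9 and Cxcl10. Klra17, Klra2 and Ybx3, and Dkc1, Mpp1 and Fundc2, made up the rest. The 7 runs held 26 of the 464 lower genes, and the neighbours that are not family members, such as Sdad1 and Ybx3, were named after their values were seen.

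Killer cell lectin-like receptors (Klr genes) included 8 members above background of 22, with 4 lower on the deposited values and 3 with the trend removed (median -1.04, trend-removed -0.76). The unfiltered median over the 22 was 0.00. Klra2 was 5.22 and 7.40, Klra17, the Ly49Q receptor of myeloid cells, 5.84 and 7.74, and Klrk1, the NKG2D receptor, 6.56 and 8.74. All 3 were below background on the Esam(hi) array. Klrd1 was above background on both arrays, at 9.46 and 10.60, and was lower on the deposited values alone. Of 13 NK cell markers only 5 were above background, with 2 lower on the deposited values and 1 with the trend removed. Ncr1, Klrb1c, Gzma and Prf1, markers that define NK cells, were below background on both arrays. Of 5 PIR and LILR receptor genes on the array, 4 were above background, and Lilr4b (9.05 and 11.16) and Lilrb4a (9.37 and 11.15) were lower.

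Toll-like receptors and their adaptors detect microbial lipid, protein and nucleic acid. Of 18 above background 7 were lower on the deposited values and 6 with the trend removed (median -0.62, trend-removed -0.44, unfiltered -0.50). Tlr8, an endosomal RNA receptor, was 5.60 and 8.67, Tlr13, which reads bacterial ribosomal RNA, 8.88 and 10.59, and Tlr2, which reads lipoprotein, 8.79 and 10.29. The lipopolysaccharide co-receptors moved with them in these arrays, Ly96 (MD-2) at 6.40 and 8.86 and Cd14 at 7.01 and 8.97. Myd88, the adaptor that most of these receptors share, was 9.42 and 10.94. These named genes were chosen for their size, and the other members above background were not 2-fold lower with the trend removed. Among 16 NOD-like receptor and inflammasome genes 5 were lower on the deposited values and 2 with the trend removed, and the trend-removed median was -0.03, near that of all genes. The 2 were Naip2, a sensor of bacterial secretion rods (8.09 and 9.64), and Casp4, the caspase-11 gene (7.33 and 8.66).

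Genes for taking up dead cells and debris were lower in part. Of 14 efferocytosis genes above background 5 were lower on both scales (median -0.59, trend-removed -0.55, unfiltered -0.37). Anxa1, a phospholipid-binding protein of dying and living cells, was 7.27 and 9.47, Itgb5, which pairs with an alpha chain to bind bridged dead cells, 6.84 and 8.38, and C1qb, a chain of the complement starter C1q, 7.42 and 9.06. Cd36, a receptor for oxidised lipid, was 6.0 and 7.70, and Dock1, which activates Rac during engulfment, 6.59 and 7.64. Among 10 scavenger receptors above background 4 were lower on the deposited values and 3 with the trend removed (median -0.78, trend-removed -0.70, turning to 0.13 unfiltered), and Scarb1, the receptor for high-density lipoprotein, was 8.30 and 10.36. Of 8 complement genes above background 2 were lower on the deposited values and 3 with the trend removed, with Cd93 at 7.13 and 8.75. The integrins, 11 of 27 above background, were nearer to all genes, with 4 lower on the deposited values and 2, Itga5 (7.15 and 8.71) and Itgb5, with the trend removed.

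Chemokines were split. Of 36 on the array 14 were above background, and 6 were lower on both scales, while 1 was higher with the trend removed (median -0.75, trend-removed -0.49, turning to 0.06 unfiltered). Cxcl9 (7.29 and 10.11) and Cxcl10 (8.11 and 10.14), which attract T cells through CXCR3, were lower, as were Ccl9 (7.03 and 9.73) and Ccl6 (7.12 and 9.65). Ccl2, the ligand of CCR2, was 7.0 and 8.54, and Cxcl2, which attracts neutrophils, was 6.24 and 8.13. Ccl19, the ligand of CCR7 in T cell zones, went the other way at 8.32 and 7.35. It was 1.95-fold higher on the deposited values and its trend-removed difference was 1.17.

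Of 28 interleukin, interferon and colony-stimulating factor receptor genes above background, 10 were lower on the deposited values and 3 with the trend removed. Csf1r, the macrophage growth factor receptor, was 8.62 and 11.67, Il13ra1, a chain of the IL-4 and IL-13 receptor, 7.86 and 10.30, and Csf3r, the neutrophil growth factor receptor, 7.34 and 9.34. Il21r, the IL-21 receptor, was 11.28, 10.61 and 10.17, and it was 2-fold higher with the trend removed alone. The trend-removed median of the list was -0.21, against -0.05 for all genes.

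**Figure D3:**
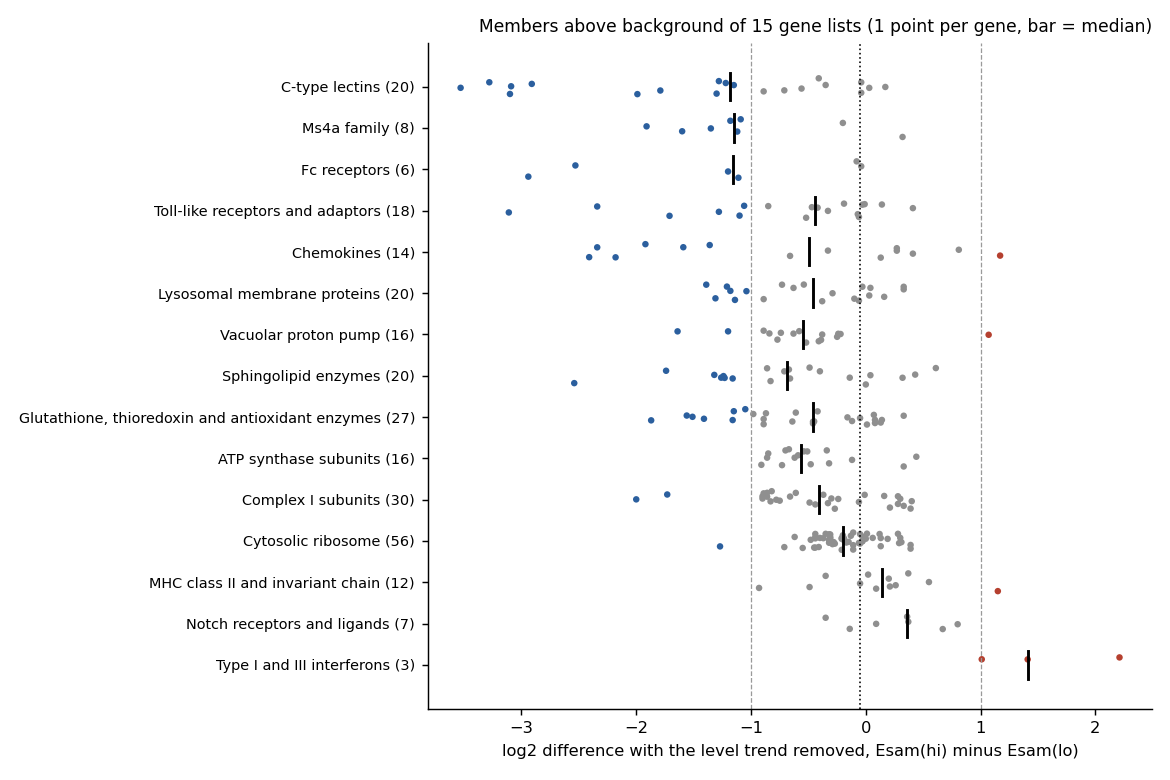
Trend-removed log2 differences, Esam(hi) minus Esam(lo), of the members above background of 15 gene lists, 1 point per gene, with the number of members in brackets. Bars mark list medians, dashed lines 2-fold, the dotted line the median of all genes (-0.05), blue points 2-fold lower and red points 2-fold higher genes. The C-type lectins, Ms4a genes and Fc receptors have medians near -1.2, while Complex I, with 2 of 30 genes past 2-fold, has a median of -0.41.

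The lysosome and its lipid chemistry made up a further group of lower genes. Of 20 lysosomal membrane protein genes above background 8 were lower on the deposited values and 6 with the trend removed (median -0.82, trend-removed -0.46, unfiltered -0.58). Tpcn1, an ion channel of endosomes and lysosomes, was 7.34 and 9.04, Scarb2, which carries glucocerebrosidase to lysosomes, 8.27 and 9.85, Ostm1, partner of a chloride exchanger, 7.57 and 9.12, and Lamp1 9.90 and 11.35. Npc2, which hands cholesterol out of the lysosome, was 8.54 and 10.29, and Ctns, the cystine exporter, 6.94 and 8.23. Channel, transporter and structural proteins were all among the 6.

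The hydrolases inside the lysosome were lower in smaller part. Of 32 lysosomal hydrolases, all 32 of which were above background, 10 were lower on the deposited values and 4 with the trend removed (median -0.65, trend-removed -0.35). The 4 were Asah1, acid ceramidase (8.80 and 10.50), Ppt1, which removes palmitate from proteins (8.80 and 10.50), Lipa, the acid lipase (8.70 and 10.30), and Arsb, a sulfatase (8.46 and 10.04). Of 11 cathepsins 4 were lower on the deposited values, and with the trend removed only Ctsb was (9.34 and 11.13). In the vacuolar proton pump, which acidifies the lysosome, 8 of 16 subunit and accessory genes were lower on the deposited values, and Atp6v1b2 (7.97 and 10.04) and Atp6v1a (7.49 and 9.02) with the trend removed. Those 2 genes encode subunits of the ATP-binding head of the pump. Atp6v1g2, a subunit form best known from brain, was 8.67 and 7.93, and its trend-removed difference of 1.07 had the opposite sign.

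Sphingolipid enzymes were shifted further than the lysosomal lists. Of 20 above background 10 were lower on the deposited values and 7 with the trend removed (median -1.05, trend-removed -0.69, unfiltered -0.89). Smpdl3a, an acid phosphodiesterase related to acid sphingomyelinase, was 7.56, 10.54 and 10.63 on the 3 arrays, 7.87-fold lower, and its relative Smpdl3b was 6.97, 8.45 and 8.11. Acer3, an alkaline ceramidase, was 6.82 and 8.74, Smpd2, a neutral sphingomyelinase, 7.35 and 8.88, and Degs1, the desaturase that makes ceramide, 8.76 and 10.43. Enzymes that make ceramide and enzymes that break it down were both among the lower genes.

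Other lipid genes showed the same direction in fewer members. Of 13 apolipoprotein and lipid transfer genes above background 6 were lower on the deposited values and 5 with the trend removed (median -0.75, trend-removed -0.32, turning to 0.03 unfiltered). Lrp1, a large endocytic receptor, was 8.50 and 10.78, Nceh1, which frees cholesterol from its esters, 6.15 and 8.36, Plin2, a coat protein of lipid droplets, 7.26 and 9.33, and Pltp, the phospholipid transfer protein, 8.56 and 10.21. Of 10 prostaglandin and leukotriene genes 5 were lower on the deposited values and 3 with the trend removed. Hpgd, which inactivates prostaglandins, was 6.63 and 9.90, Pla2g7, which breaks down platelet-activating factor, 8.12 and 10.20, and Tbxas1, thromboxane synthase, 6.73 and 7.95. Genes that make and genes that destroy such lipid mediators were thus both on the lower side.

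Calcium-binding S100 and annexin genes included 16 above background of 29, with 8 lower on the deposited values and 5 with the trend removed (median -0.96, trend-removed -0.59, unfiltered -0.02). S100a8, a subunit of calprotectin, was 8.35 and 10.53, and S100a10 and its partner Anxa2 were 8.02 and 10.19, and 8.20 and 10.03. Anxa5 was 9.74 and 11.31. The partners of the S100a10 and annexin A2 complex had similar differences, -2.17 and -1.83.

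Glutathione, thioredoxin and other antioxidant enzymes had 27 members above background of 54, with 12 lower on the deposited values and 7 with the trend removed (median -0.85, trend-removed -0.46, unfiltered -0.09). Gsr, which regenerates glutathione, was 8.36, 10.68 and 10.49, 4.97-fold lower, and Prdx1, a peroxidase, was 7.98 and 9.82. Sod2, the mitochondrial superoxide dismutase, was 7.95 and 9.40, Prdx3, the mitochondrial peroxidase, 6.69 and 7.85, and Gclm, a subunit of the first enzyme of glutathione synthesis, 6.75 and 7.92. The glutathione transferase genes Gstk1 and Mgst1 were 6.52 and 8.10, and 5.73 and 7.06. Both were below background on the Esam(hi) array, as were Prdx3 and Gclm. Synthesis, recycling and use of glutathione were all represented among the 7. Of 18 iron and heme genes 6 were lower on the deposited values and 2 with the trend removed, Lrp1 and Lcn2 (10.80 and 12.25), a protein that binds iron carriers of bacteria.

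Several lists of energy, protein making and protein disposal had medians below that of all genes with few members far apart, while others lay near it. Near it with the trend removed were the immunoproteasome and peptide loading genes (-0.03), DnaJ cochaperones (-0.06), autophagy genes (-0.11), ubiquitin-specific proteases (-0.12), genes of stress and folding in the endoplasmic reticulum (-0.14), mitochondrial import (-0.16) and heat shock proteins (-0.17). In respiratory Complex I 30 of 36 subunit genes were above background, and 11 were 2-fold lower on the deposited values but 2 with the trend removed (median -0.77, trend-removed -0.41, unfiltered -0.61). The 2 were Ndufb6 (6.52 and 8.63) and Ndufb5 (6.79 and 8.69), both under background on the Esam(hi) array, and a share of 2 in 30 is near the 5.3% of all genes. All 16 ATP synthase genes were above background, and 8 were lower on the deposited values and 0 with the trend removed, though the trend-removed median was -0.57. Complex III (9 genes, trend-removed median -0.47) and glycolysis (11 genes, -0.41) also had more lower members on the deposited values, 3 and 5, than with the trend removed, 1 and 0. By mean level, the median deposited difference over all genes was lowest, at -0.51, for levels of 9 to 10, so much of a shift at such levels lies in the trend.

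Fatty acid oxidation kept more of its members. Of 15 genes, all above background, 5 were lower on the deposited values and 4 with the trend removed (median -0.78, trend-removed -0.66). Cpt1a, which admits long fatty acids to mitochondria, was 8.18 and 9.68 (10.03 on the labelled array), Hadh 6.91 and 8.27, Hadhb 6.86 and 8.21, and Acaa2 7.47 and 8.81. The last 3 encode enzymes of the later steps of the cycle.

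In protein making, 15 of 48 translation initiation genes were lower on the deposited values and 3 with the trend removed (median -0.79, trend-removed -0.46). Those 3 were Eif3e (8.28 and 9.76), Eif5a (9.72 and 11.18) and Eif2b1 (6.22 and 7.08), and a share of 3 in 48 is near the 5.3% of all genes. Eif2b1 was under background on the Esam(hi) array, and its deposited difference of -0.86 was short of 2-fold. For the translocon and sugar-transfer genes of the endoplasmic reticulum the counts were 10 and 2 of 20 (median -0.96, trend-removed -0.57), with Ssr4 at 8.40 and 9.98 and Spcs2, a subunit of signal peptidase, at 7.86 and 9.33. The proteasome had 12 and 2 of 36 (median -0.79, trend-removed -0.38), with Psma6, of its core ring, at 7.58 and 9.51 and Psmc6, of its cap, at 7.06 and 8.25. With the trend removed, 2 in 36 is also near the share of all genes. The CCT chaperonin, which folds actin and tubulin, had 3 and 0 of 8. By contrast in the counts, 3 of 56 cytosolic ribosome genes were lower on the deposited values and 1 with the trend removed (median -0.54, trend-removed -0.20).

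Mitotic genes were low in level and somewhat lower on the Esam(hi) array. Of 28 above background 6 were lower on the deposited values and 2 with the trend removed (median -0.79, trend-removed -0.50). A share of 2 in 28 is near the 5.3% of all genes with the trend removed. Mad2l1, of the spindle checkpoint, was 6.84, 8.22 and 8.67, and Bub1, of the same checkpoint, was 6.79, 7.85 and 8.35. Both checkpoint genes were under background on the Esam(hi) array alone.

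Interferon-linked families did not move as 1 body. IFITM and PYHIN genes, which restrict viruses at membranes and sense DNA, had 6 of 10 lower on the deposited values and 3 with the trend removed (median -1.12, trend-removed -0.72, unfiltered -0.06). Ifi205 was 6.39 and 9.11, Ifitm3 11.06 and 12.62, and Ifi207 9.99 and 11.50. Of 5 Schlafen genes 3 were lower on the deposited values and 2 with the trend removed, Slfn8 (6.36 and 7.66) and Slfn5 (8.02 and 9.59). Of 20 IFIT, OAS and MX genes, the classical antiviral set, 0 were 2-fold apart in either direction on either scale, with a median of -0.47 (-0.14 trend-removed). On the other side stood interferon genes themselves, of which 3 of 16 were above background. Ifnz was 9.77 and 7.98, Ifnl2 9.13 and 8.11, and Ifna5 8.59 and 7.90, all 3 higher with the trend removed, and the first 2 on both scales. These belong to families of near-identical copies whose probes can share signal.

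Immune surface lists differed from each other. CD300 receptors had a median of -0.71 (-0.38 trend-removed), and the SLAM and CD2 family one of -0.28 (-0.14). In the B7, butyrophilin and TIM family 12 of 25 genes were above background, with a median of 0.05 that turned to -0.06 on centring and to 0.38 with the trend removed. Cd86, the ligand that co-stimulates T cells, was 12.18, 11.35 and 11.48 on the 3 arrays, 1.77-fold higher and 2-fold higher with the trend removed. Btnl9, a butyrophilin, was 7.84 and 6.85, and Pvr, the poliovirus receptor, was lower at 8.21 and 9.92. RGS proteins, which shut off receptor signals, had a median of 0.04, -0.07 on centring and 0.43 with the trend removed, with Rgs1 at 12.08 and 11.20, Rgs3 at 9.91 and 9.32, and Rgs18 lower at 7.73 and 9.27. Of 6 Siglec genes above background (median 0.29, trend-removed 0.47), Siglecg, an inhibitory receptor for sialic acid, was 10.41 and 9.83, and Cd33 was 8.67 and 9.74. The co-stimulation, RGS and Siglec lists thus each held members on both sides.

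Among the other described lists were lysozyme and antimicrobial genes, with 8 of 15 lower on the deposited values and 5 with the trend removed (median -1.13, trend-removed -0.71, unfiltered -0.77). The 3 cystatin and stefin genes above background, of 14, had a median of -1.06 (-0.79 trend-removed, 0.00 unfiltered), and the 2 apolipoprotein L genes, of 7, one of 0.61 (0.81, and 0.15). Lyz1, which digests bacterial walls, was 5.01-fold lower, and Chil3, a chitinase-like protein of activated macrophages, 3.16-fold lower. Among 23 exchange and GTPase-activating genes of Ras and Rap, 6 were lower on the deposited values, and with the trend removed 1 was lower and 2 were higher, while the median of -0.33 turned to 0.09. Rasa3, which shuts off Ras and Rap, was 7.89 and 10.21, 5.0-fold lower. Of 12 purinergic receptor genes 4 were lower on the deposited values and 1, P2ry6, a receptor for UDP, with the trend removed (3.94-fold). Of 17 ETS factors 5 were lower on the deposited values and Ets2 alone with the trend removed. With the trend removed, 1 in 17 here and 1 lower in 23 for Ras and Rap are near the 5.3% of all genes.

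The Notch pathway itself showed few differences beside Dtx1. Of 11 receptor and ligand genes on the array 7 were above background, and 0 were 2-fold apart on either scale (median 0.36 on both). Notch4 was 7.79, 7.04 and 6.92 on the 3 arrays, Dlk1, a ligand-like protein, 7.78, 7.19 and 6.94, Notch1 7.76, 8.38 and 8.38, and Notch2 10.87, 11.40 and 11.50. Of 9 Deltex, Hes and Hey genes above background Dtx1 was higher on both scales and 1 was lower on the deposited values alone. The median of this list, -0.11, turned to 0.02 with the trend removed. Of 24 genes of the RBPJ complex and gamma-secretase 3 were lower on the deposited values and 1 with the trend removed. These shares are near the 11.6% and 5.3% of all genes. The 1 was Psenen, a subunit of gamma-secretase, at 10.70 and 12.08. Dtx1 was therefore the only gene of these 3 Notch lists that was higher on both scales.

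**Figure D4:**
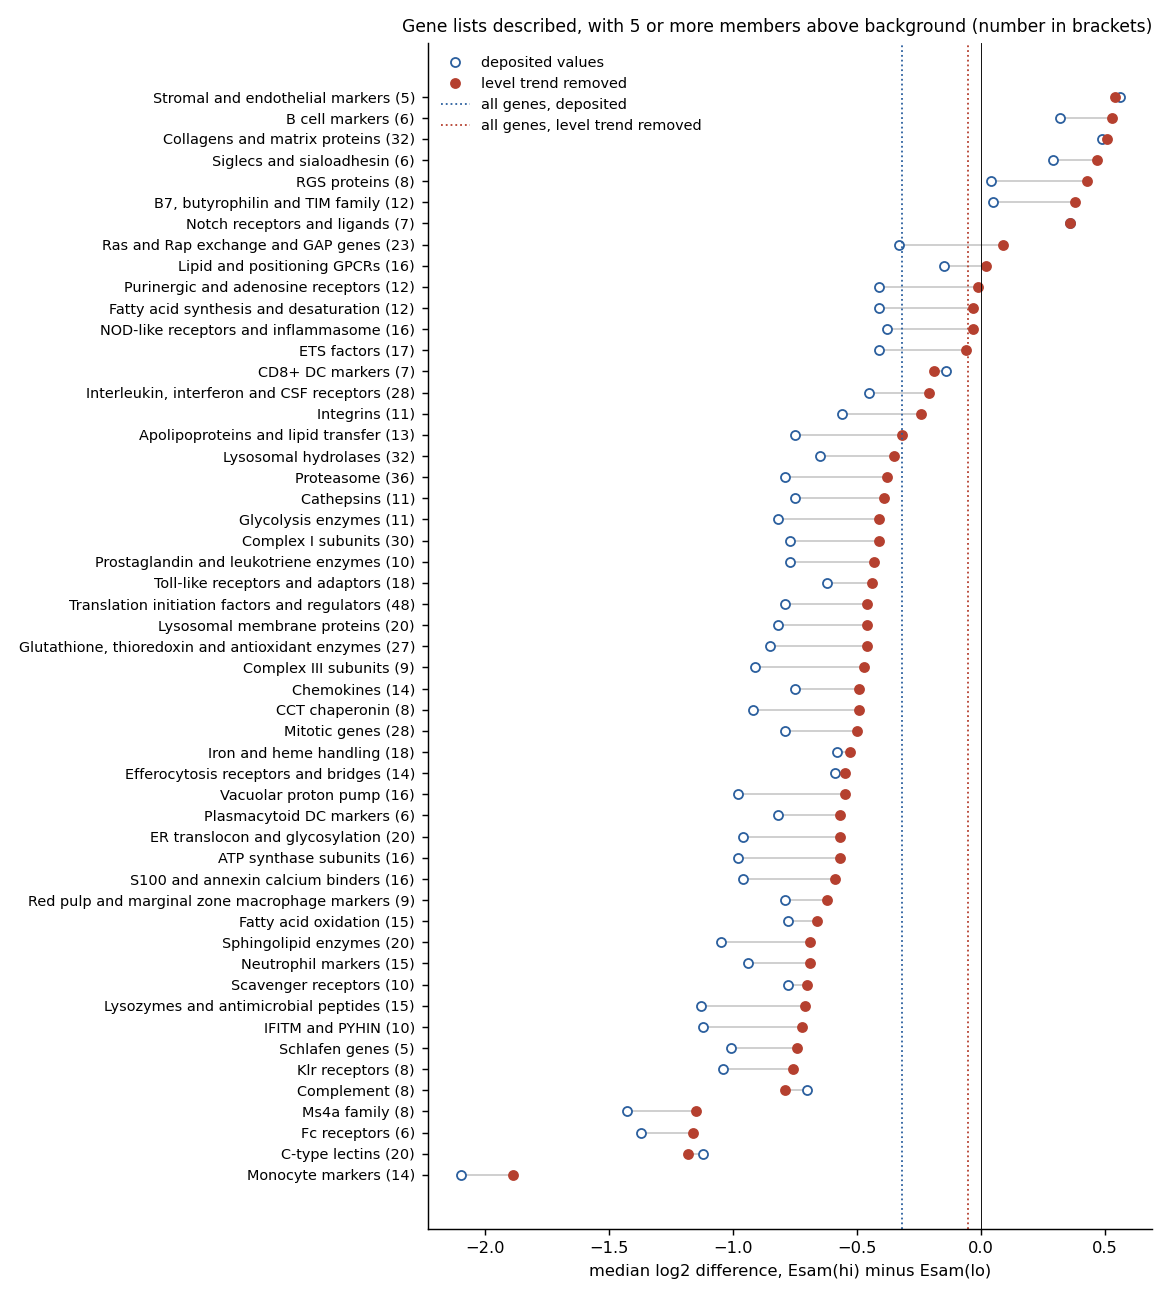
Median log2 difference, Esam(hi) minus Esam(lo), for each described gene list with 5 or more members above background (number in brackets), on the deposited values (open circles) and with the level trend removed (filled circles). Dotted lines mark the medians of all genes, -0.32 and -0.05. With the trend removed, monocyte markers, C-type lectins, Fc receptors and Ms4a genes lie farthest left, and the energy and protein lists lie between -0.66 and -0.38.

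Markers of other cells moved with these lists. The 14 monocyte markers above background, of 15 on the array, had median levels of 7.24 and 10.09, and 12 were lower on the deposited values and 11 with the trend removed. The median of the 15 neutrophil markers above background was 8.95 and 9.34. Of these 7 were lower on the deposited values and 4 with the trend removed, while Mpo, an enzyme of early granules, was higher with the trend removed at 9.28 and 8.31. Ly6g, which defines neutrophils, was 6.97 and 7.67, and Cxcr2 was below background on both arrays. Of 17 red pulp and marginal zone macrophage markers 9 were above background (median level 7.42 and 8.14) and 2 were lower on both scales. Cd5l, Marco, Siglec1, Cd163 and Timd4, which define those macrophages, were below background on both arrays. Among CD8+ DC markers 7 of 13 were above background, and Clec9a, Naaa (8.78 and 11.11) and Ifi205 were lower. Wdfy4 (12.15 and 11.42) and Ly75 (8.20 and 7.32) were higher with the trend removed, and Cd8a and Xcr1 were below background on both arrays. Of 6 plasmacytoid DC markers above background 3 were lower on the deposited values, Klra17, Tcf4 (8.34 and 9.55) and Spib (8.09 and 9.28). Klra17 alone was lower with the trend removed, and Siglech was below background on both arrays. The part of these cells in the lower lists was not tested.

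Jchain, the joining chain of secreted antibody, was among the 71 higher genes, at 10.70, 9.68 and 8.68. Of 6 B cell markers above background 0 were 2-fold apart, with a median of 0.32 (0.53 trend-removed). Cd22 was above background on both arrays, at 10.37 and 10.10, while Ms4a1, Cd79a and Pax5 were below background on both. Of 10 plasma cell markers 5 were above background, and Sdc1 and Tnfrsf17 were not. Immunoglobulin gene segments, 6 of 14 above background, had a median of 0.45 (0.88 trend-removed). On either scale 5 of these 6 had differences above 0 and 1 below it. A V segment among them, at 9.93, 8.85 and 8.14, was in the higher set. The part of plasma cells in the Jchain and segment values was not tested.

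The higher set held 26 genes that are not protein-coding. Among genes above background the median difference was 0.55 for 58 microRNA genes (0.75 trend-removed), 0.33 for 153 long noncoding RNA genes (0.43) and -0.34 for 8845 protein-coding genes (-0.07). For 42 small nucleolar RNA genes it was 0.06, turning to -0.05 on centring and 0.43 with the trend removed. Over whole classes, without the filter, the medians were 0.01 for 297 microRNA, 0.18 for 675 long noncoding RNA and 0.00 for 53 small nucleolar RNA genes. Snord118, the U8 RNA used in ribosomal RNA processing, was 11.52, 8.82 and 8.82 on the 3 arrays, 6.50-fold higher and the farthest of all genes on that side. Rmrp, the RNA of an RNA-cutting enzyme, was 12.95 and 11.42, and the RNase P RNA genes Rprl1 and Rprl2 were 9.58, 8.17 and 8.26, and 11.65, 10.30 and 10.13. Rny3, a Y RNA, was 10.88, 9.85 and 9.75. In these 5 genes the Esam(lo) value was below the Esam(hi) value.

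Of 58 microRNA genes above background 7 were higher and 0 were lower on both scales. RefSeq (GRCm38.p6) held mature sequences for 4 of them, Mir680-1, Mir680-2, Mir680-3 and Mir346, and the other 3 were Mir598, Mir320 and Mir297b. The mature forms are shown with the seed, bases 2 to 8, in capitals, because 3 of the higher genes share 1 of them.
mmu-miR-680: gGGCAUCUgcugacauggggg
mmu-miR-346-5p: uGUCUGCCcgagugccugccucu
mmu-miR-346-3p: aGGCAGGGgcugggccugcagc
The 3 Mir680 genes give the same mature RNA, so they share a seed and may share probe signal, while the arms of Mir346 have 2 other seeds. Mir680-2 was 11.84, 10.12 and 10.43 on the 3 arrays, Mir680-1 10.51, 8.88 and 9.32, Mir680-3 9.90, 8.84 and 8.91, and Mir346 10.61, 9.60 and 9.44. How far these probe sets read the hairpin or the mature RNA was not tested.

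Families that spleen DCs are not known to use also had members in the higher set. The background was set by olfactory and vomeronasal receptor genes themselves, so those that passed are the bright tail of their family. Of 58 olfactory receptor genes above background 5 were higher on the deposited values and 9 with the trend removed (median 0.47, trend-removed 0.52), and over all 1027 the unfiltered median was 0.05 (-0.02 trend-removed). Of 16 keratin and keratin-associated genes 7 and 11 were (median 0.92, trend-removed 1.08, unfiltered 0.27 over 92), with Krtap5-3 at 10.35, 8.89 and 8.84. The background level itself was higher for Esam(hi), 7.17, than for Esam(lo), 6.76. Of 32 collagen and matrix genes above background the median was 0.49 (0.51 trend-removed, 0.28 unfiltered), while 4 were lower on both scales. Those were Fn1, fibronectin (7.62 and 11.12), Thbs1, thrombospondin 1 (8.12 and 10.94), Emilin2 (8.05 and 10.29) and Tgfbi (10.35 and 11.95). On both scales 4 olfactory receptor and 6 keratin genes were among the 71 higher genes. Some of them were well above background, such as Krtap5-3, and Olfr1174 at 10.38 and 9.34. Whether the same shift touches other higher genes, dim or bright, was not tested.

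**Figure D5:**
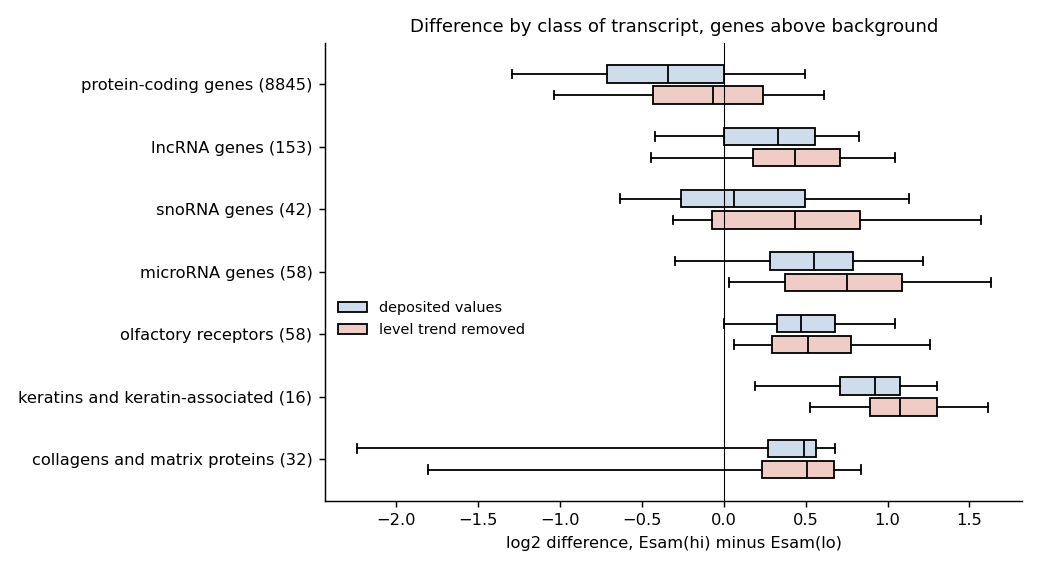
Log2 differences, Esam(hi) minus Esam(lo), by class of transcript for genes above background (number in brackets), on the deposited values (blue) and with the level trend removed (red). Boxes span the 25th to the 75th percentile with the median as a line, and whiskers run from the 5th to the 95th percentile. Protein-coding genes have medians below 0 on both scales, and microRNA, olfactory receptor and keratin genes have medians above 0 on both.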

How the data were processed

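RNA of 3 sorted, pooled spleen samples was hybridised to Affymetrix Mouse Gene 1.0 ST arrays. The deposited log2 values came from RMA in Affymetrix Expression Console, per the submitters' processing notes, with their versions not given in the sources used here. Since RMA fits the arrays of a run together, values on 1 array depend on the rest, and the set of arrays in the run is likewise not given. Of 35556 probe sets, 21789 had 1 gene symbol, 1621 several and 12146 none, by GEO's platform annotation. Symbols were updated by Entrez number to RefSeq (GRCm38.p6), which changed 0 and did not find 91. A gene with several probe sets (999 genes) was read by the brightest over the 3 arrays.

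A gene was above background where the brighter control array passed the 95th percentile of 1194 smell and pheromone receptor genes there. The trend was a lowess curve (window 0.3 of genes, statsmodels 0.14.6, Python 3.11.15). It was run on simulated data built on the same curve, with equal numbers of genes moved up and down. That run cannot show how the curve acts where most differences go the same way. Called means at least 2-fold with the brighter array above background. Named genes were the sort markers, the 20 protein-coding genes farthest each way by trend-removed difference among those past 2-fold on both scales, and up to 6 members of each described list past 2-fold on either scale, or the next by size. The 20 were ranked after leaving out provisional (Gm and Rik) names, smell and pheromone receptors, keratin-associated proteins and antigen receptor segments. A list was described where at least 3 members and 25% of those above background were past 2-fold in 1 direction, or its trend-removed median was at least 0.4 from that of all genes. Members and lists were chosen with earlier results of these data known. Alternatives were array centring, quantile normalization, other filters, other fold thresholds and the mean of a gene's probe sets.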

Additional observations from a re-analysis of the deposited data

How the results depend on the processing

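The count of 75 genes higher on the deposited values became 180 with the trend removed, 47 with arrays centred on their medians, 150 with quantile normalization, 405 at 1.5-fold and 12 at 3-fold. The 1066 lower genes became 487 with the trend removed, 651 with quantile normalization, 2944 at 1.5-fold and 196 at 3-fold. Centring gave 1463, within 1.5 times. The sets past 2-fold on both scales held 69 higher and 447 lower genes with a narrower trend window, 72 and 497 with a wider one and 66 and 445 with the mean of probe sets, and other filters were not run for them. Without the filter on dim genes the medians of C-type lectins, Ms4a genes, Fc receptors and Klr receptors became 0.00, those of S100 and annexin genes -0.02, IFITM and PYHIN genes -0.06 and antioxidant enzymes -0.09. The median also became 0.00 for complement and for interleukin, interferon and colony-stimulating factor receptors. It became -0.12 for prostaglandin and leukotriene genes, -0.16 for PIR and LILR genes and -0.18 for cathepsins. Among lists with medians above 0, it became 0.03 for Siglecs, 0.14 for Notch receptors and ligands and 0.21 for interferon genes. The median turned to 0.13 for scavenger receptors, 0.11 for integrins, 0.06 for chemokines, 0.03 for apolipoproteins and lipid transfer and 0.02 for CD8+ DC markers. With the trend removed it turned to 0.02 for lipid and positioning receptors and 0.09 for Ras and Rap exchange and GTPase-activating genes. The cause was not tested. Of 294 named genes, 87 fell below 2-fold with the trend removed, 55 with quantile normalization and 11 on centring, and 27, 17 and 3 newly passed it. Only Itgax and Rbpj differed in sign between the 4 scalings. With 1 array per group no array could be left out, and precision is limited by having so few arrays. No paired analysis was possible because each group has 1 array.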

Other observations

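Probe sets without a single gene name stood apart from the genes. Of 1621 probe sets with several gene names 1147 were above background, and on both scales 258 were 2-fold higher for Esam(hi) and 12 lower. Of 12146 probe sets with no gene name 4864 were above background, with 517 higher and 423 lower. Their median differences were 0.00 for both kinds on the deposited values and 0.31 and 0.25 with the trend removed, against -0.32 and -0.05 for named genes.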
